A study of Mus musculus with 11 samples.

Results

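The 9 genes described here are the receptors and effectors of Hedgehog signalling, namely Ptch1, Cdon, Boc, Gas1, Smo, Sufu, Gli1, Gli2 and Gli3, out of 28222 genes with counts in mesenchymal stem cells (MSCs) of young and old mice. The set was chosen by the CPM (counts scaled to a common library total) of Cdon and its pathway in these same libraries, so the values of the 9 genes are given as a description, without a test of their own. A gene is named as called where edgeR's adjusted p over all genes was under 0.05. For the 9 genes a call is a label only and gives no support, since they were chosen with these values known. All 9 were in the table and all 9 passed the filter on low counts, which left 16132 genes.

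Hedgehog ligands are lipid-modified proteins that bind Ptch1, a membrane protein that otherwise keeps the transducer Smo inactive. Cdon, Boc and Gas1 are surface co-receptors that bind the ligand together with Ptch1. Active Smo acts at the primary cilium and releases the Gli transcription factors from their cytoplasmic inhibitor Sufu, and Gli1 and Ptch1 are themselves target genes of the pathway. In skeletal progenitors Hedgehog signalling is known for its part in bone formation.

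Polyadenylated RNA was sequenced from MSCs that had all been cultured at 2% oxygen, with 4 libraries of young mice in batch A, 2 of young mice in batch B, 2 of old mice in batch B and 3 of old mice in batch C. Young mice were 3 to 5 months old and old mice 18 to 22 months. The labels name no strain, genotype, tissue of origin or sorting, and do not say whether replicates came from separate animals, so that p-values measure the spread between these libraries, which may be technical. These groups are called A-young, B-young, B-old and C-old. Age and batch can be separated in batch B only, and batch stands for what the labels call it, with no date or protocol attached. Over well-counted genes, B-young replicate 2 differed less from B-old replicates 2 and 1 (chi-squared per gene 18.0 and 32.3) than from B-young replicate 1 (52.3). B-young replicate 1 differed less from the A-young libraries (35.1 to 44.3) than from B-young replicate 2. Totals were 11969336 to 20315934 counts per library, and 3 counts, taken as the floor of detection, corresponded to 0.156 to 0.253 CPM. All 10 mesenchymal markers, including Pdgfra and Ly6a, were above 1 CPM in every group. Markers of blood cells were above 1 CPM as well, with summed levels of 625 to 1358 CPM in A-young, 354 to 717 CPM in B-young, 715 to 1034 CPM in B-old and 126 to 146 CPM in C-old libraries. In bulk RNA, fewer cells of a type and less RNA per cell cannot be told apart.

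Cdon, an immunoglobulin superfamily co-receptor that also takes part in the adhesion of muscle precursors, was lower in old than in young MSCs of batch B. Cdon (ENSMUSG00000038119) lies on the plus strand of GRCm38 at chr9:35421128-35507652. Its level was 221 and 163 CPM in B-young and 82.7 and 94.2 CPM in B-old libraries. The ranges did not overlap, and the fitted difference was −1.12 ± 0.13 (log2, SE), which is 2.17-fold lower in old MSCs. In A-young libraries Cdon was at 264, 268, 288 and 289 CPM, above every library of batch B. In C-old libraries it was at 132, 140 and 140 CPM, above B-old and below B-young. Every old library was therefore below every young library, with 140 CPM as the highest old and 163 CPM as the lowest young value, although this comparison mixes age with batch. With CPM computed on total counts, without scaling factors, the same distance narrowed to 161 against 162 CPM. Of all genes tested, 4.22% had every old library below every young one.

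**Figure D1:**
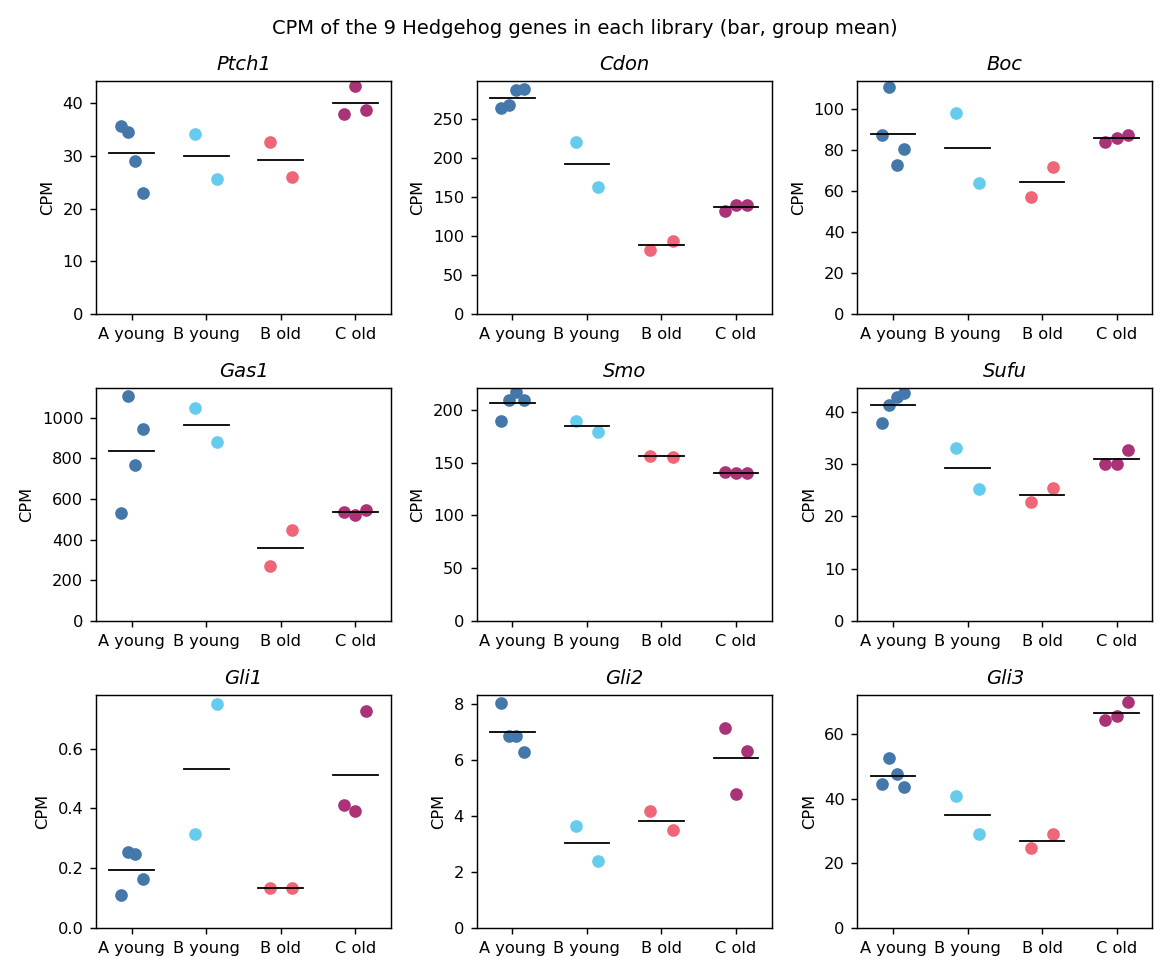
CPM of each of the 9 genes (linear axes from 0) in the 11 libraries by group, with points for libraries and bars for group means. Cdon was at 82.7 to 140 CPM in the 5 old and 163 to 289 CPM in the 6 young libraries, and Gli1 stayed under 1 CPM throughout.

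Sequences around the RefSeq starts of Cdon, Gas1 and Ptch1 are shown. The first 2 are the members called between ages within batch B, and the last is the receptor and target gene that was not. Each window runs 5′ to 3′ over 300 bases, from 250 before to 50 after the RefSeq start (GRCm38.p6), with CG dinucleotides in capitals. The windows are chr9:35451826-35452125 (plus strand) for Cdon, chr13:60177486-60177785 (minus strand) for Gas1 and chr13:63565686-63565985 (minus strand) for Ptch1.
Cdon: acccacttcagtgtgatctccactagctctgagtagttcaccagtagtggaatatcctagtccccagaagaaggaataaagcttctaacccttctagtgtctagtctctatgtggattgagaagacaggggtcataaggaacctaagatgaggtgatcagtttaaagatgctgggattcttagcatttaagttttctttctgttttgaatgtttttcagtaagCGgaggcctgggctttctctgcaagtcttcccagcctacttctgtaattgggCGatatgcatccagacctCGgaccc
Gas1: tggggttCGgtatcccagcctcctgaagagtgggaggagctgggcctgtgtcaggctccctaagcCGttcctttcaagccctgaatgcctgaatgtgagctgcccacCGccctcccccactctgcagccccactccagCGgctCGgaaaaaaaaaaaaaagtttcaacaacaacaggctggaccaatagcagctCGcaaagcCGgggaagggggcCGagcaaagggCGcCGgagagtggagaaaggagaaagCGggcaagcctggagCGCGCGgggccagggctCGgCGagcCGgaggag
Ptch1: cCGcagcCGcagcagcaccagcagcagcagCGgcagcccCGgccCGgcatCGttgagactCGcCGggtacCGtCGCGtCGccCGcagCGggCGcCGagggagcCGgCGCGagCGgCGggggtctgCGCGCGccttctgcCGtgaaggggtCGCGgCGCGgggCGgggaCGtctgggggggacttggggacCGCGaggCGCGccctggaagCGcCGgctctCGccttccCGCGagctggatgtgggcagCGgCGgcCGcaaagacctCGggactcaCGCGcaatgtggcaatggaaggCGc
The Cdon window held 3 CG dinucleotides and 44.7% G and C, the Gas1 window 17 and 62.3%, and the Ptch1 window 47 and 76.3%, against a median of 7 CG dinucleotides over all 32851 windows. The RefSeq start of Cdon lies 30948 bases downstream of the 5′ end of the gene in GENCODE M21, so that the whole window is inside the gene body, with 81 of its bases in annotated exons. The Ptch1 window also lies inside the gene body, 7863 bases from the GENCODE 5′ end, while the Gas1 window lies just upstream of the GENCODE gene. The 9-letter GLI motif GACCACCCA or its complement TGGGTGGTC was found in 0 of the 7 members with a window (Cdon, Gas1, Ptch1, Smo, Gli2, Gli3 and Sufu) and in 83 of the 32851 windows, or 0.253%. Boc and Gli1 had no entry. A motif found in so few windows would be rare in any 7, so its absence here says nothing about GLI sites at these genes.

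Gas1, a membrane-anchored co-receptor first known as a growth arrest gene, differed in the same direction as Cdon. Gas1 (chr13:60174405-60177365, minus strand) was at 1047 and 880 CPM in B-young and at 271 and 448 CPM in B-old libraries. The groups did not overlap, and the difference was −1.42 ± 0.26 (log2, SE), or 2.68-fold lower in old MSCs. The other libraries were at 532, 766, 944 and 1105 CPM in A-young and at 535, 523 and 546 CPM in C-old. The lowest A-young library was thus within the range of C-old, so that young and old libraries overlapped when batches were pooled. The call of Gas1 was lost without B-old replicate 1, at −1.09 ± 0.29, and without B-young replicate 1, at −1.29 ± 0.31.

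Boc, the co-receptor most closely related to Cdon, varied more between replicates than between ages. Boc (chr16:44485049-44558897, minus strand) was at 98.1 and 63.9 CPM in B-young and 57.1 and 72.1 CPM in B-old libraries. The ranges overlapped and the difference was −0.33 ± 0.19. Boc was at 72.8 to 111 CPM in A-young and at 84.3 to 87.3 CPM in C-old libraries. Of the 3 co-receptors, Cdon and Gas1 were therefore called between ages within batch B and Boc was not. Whether Boc differed from Cdon or Gas1 in its response was not tested.

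Ptch1, the ligand receptor, hardly differed between ages in batch B. Ptch1 (chr13:63508328-63573598, minus strand) was at 34.1 and 25.7 CPM in B-young and 32.5 and 26.0 CPM in B-old libraries, with a difference of −0.04 ± 0.19. Its sign turned with scaling by total counts, to 0.03. A-young libraries were at 22.9 to 35.7 CPM. All 3 C-old libraries, at 37.9, 43.1 and 38.7 CPM, were above the other 8.

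Smo, the seven-transmembrane transducer, was 1.18-fold lower in old MSCs of batch B, at −0.24 ± 0.10 (log2, SE), which was not called. Smo (chr6:29735503-29761365, plus strand) was at 189 and 179 CPM in B-young and at 156 and 155 CPM in B-old libraries, without overlap. It was at 189, 209, 217 and 210 CPM in A-young and at 141, 140 and 140 CPM in C-old libraries. As for Cdon, every old library was below every young one, with 156 CPM as the highest old and 179 CPM as the lowest young value. On total counts these values were 164 and 168 CPM. Smo and Cdon were the members with this order, which also mixes age with batch.

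Sufu, the inhibitor that holds Gli proteins in the cytoplasm, was at 33.1 and 25.3 CPM in B-young and 22.7 and 25.4 CPM in B-old libraries. The ranges overlapped, and the difference was −0.28 ± 0.14. Sufu (chr19:46396896-46488804, plus strand) was highest in A-young, at 38.0 to 43.5 CPM, and was at 30.0 to 32.8 CPM in C-old libraries. The spread between the 2 B-young libraries was larger than the distance between ages there.

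Among the transcription factors, Gli3, which acts mostly as a repressor in the absence of ligand, was the most abundant. Gli3 (chr13:15463235-15730026, plus strand) was at 40.9 and 28.9 CPM in B-young and at 24.7 and 29.0 CPM in B-old libraries, with a difference of −0.38 ± 0.15 and overlapping ranges. A-young libraries were at 43.5 to 52.6 CPM and C-old libraries at 64.2, 65.4 and 69.9 CPM, so that both the lowest and the highest levels were found in old MSCs. Gli2, the main activator, was at 3.65 and 2.38 CPM in B-young and at 4.18 and 3.47 CPM in B-old libraries. Gli2 (chr1:118834132-119053619, minus strand) was the member with a higher fitted level in old MSCs of batch B, at 0.32 ± 0.27, and the ranges overlapped. It was at 6.26 to 8.03 CPM in A-young and at 4.78 to 7.12 CPM in C-old libraries.

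Gli1, a target gene commonly read as a sign of active signalling, was close to the floor. Gli1 (chr10:127329882-127341974, minus strand) had 2, 3, 3 and 2 counts in A-young, 6 and 11 in B-young, 2 and 2 in B-old, and 7, 6 and 10 in C-old libraries. In CPM this was 0.111 to 0.253, 0.313 and 0.749, 0.135 and 0.134, and 0.393 to 0.726. The summed counts of batch B gave a ratio of 3.74 for young over old MSCs, which takes no account of the spread between libraries. The fitted difference of old against young MSCs there was −1.87 ± 0.76, which was not called. For C-old over B-old the ratio of summed counts was 3.72 and the fitted difference 1.84 ± 0.72. Its 3′ part shares 62 bases with Arhgap9 on the opposite strand, which was at 0.435 to 4.62 CPM, and the strand setting of the counting is not given in the sources used here, so that reads of the overlap cannot be told apart. The antisense gene Gm47200 is annotated there as well. Genes annotated within Gas1 and Gli3 had at most 1.01 and 2.62 CPM.

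Within batch B, 2 of the 9 genes were called by edgeR between old and young MSCs, and 2.23% of all genes tested were. Both, Cdon and Gas1, were lower. The groups did not overlap for 4 members, Cdon, Gas1, Smo and Gli1, against 39.7% of all genes tested. The fitted difference was below 0 for 8 members, and for 7 with scaling by total counts, with a median of −0.33 against 0.00445 over all genes. Leaving out single libraries moved Gas1 between −1.83 and −1.09 and Cdon between −1.33 and −0.88. That range of Cdon also held over all 21 alternative settings, while Gas1 was at −1.83 to −0.90 over them. These are refits of the same libraries from which the set was chosen, so they describe dependence on processing only.

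**Figure D2:**
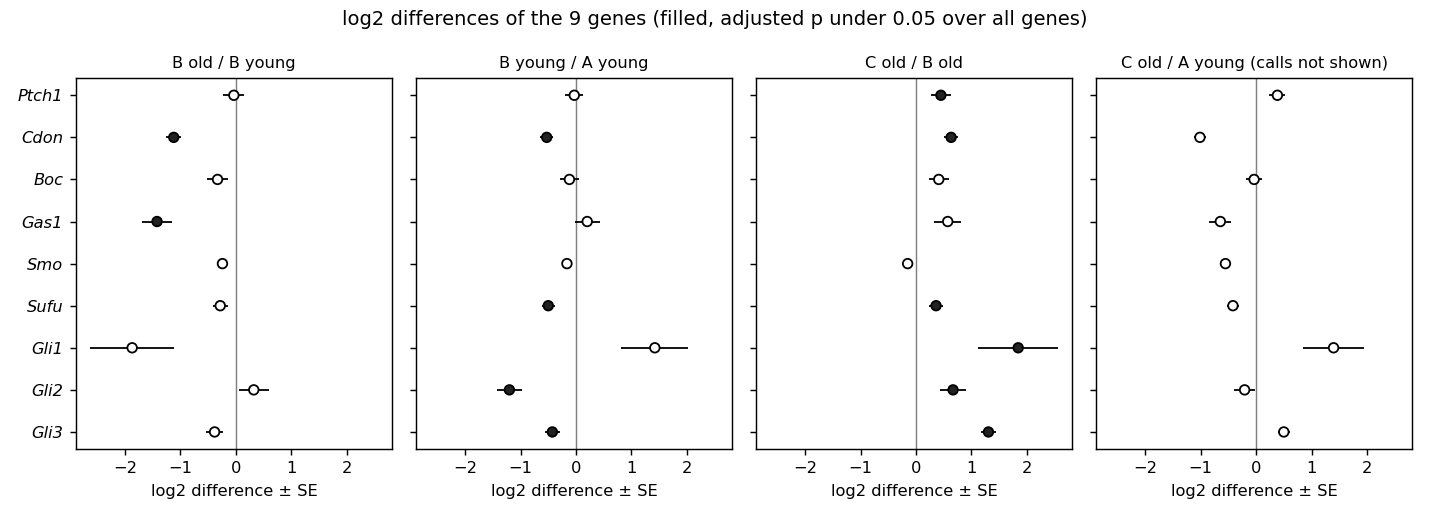
Fitted log2 differences ± SE of the 9 genes in 4 comparisons, filled in the first 3 panels where edgeR's adjusted p was under 0.05 over all genes. Within batch B, Cdon (−1.12) and Gas1 (−1.42) are filled on the lower side, and the right panel shows values without marking calls, since age and batch cannot be told apart there.

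Other markers moved beside Cdon and Gas1. The summed level of 6 chondrocyte markers was 4370 to 6180 CPM in B-young and 2299 to 2567 CPM in B-old libraries, and 5179 to 6998 CPM in A-young and 3871 to 4589 CPM in C-old libraries. Most of it was Comp, a cartilage matrix protein, which fell in old MSCs of batch B by 1.30 in log2 units (SE 0.20, adjusted p = 0.00287 from edgeR), and 2 of the 6 genes were called. Col9a1 and Matn3 stayed under 3 CPM in all libraries. Of the 10 mesenchymal markers 8 had a lower and 2 a higher fitted level in old MSCs of batch B. The 2 called by edgeR were Pdgfra, which fell by 0.86 (adjusted p = 0.0059), and Nt5e, by 1.34 (adjusted p = 0.00932). Of 7 osteoblast markers 6 had a higher fitted level in old MSCs of batch B, and Alpl, the alkaline phosphatase of mineralising cells, rose 1.98-fold (adjusted p = 0.00287). All 10 blood cell markers had a higher fitted level there, with a median of 0.63, and edgeR and limma-trend called 0 of them and DESeq2 called 1, with 5 at an unadjusted p under 0.05 in edgeR. Of the muscle markers Des, which encodes desmin, rose 4.45-fold (adjusted p = 0.00283), while the summed level of that list stayed at 0.817 to 4.58 CPM in all libraries. The summed level of 8 proliferation genes was 117 to 137 CPM in B-young and 173 to 259 CPM in B-old libraries, and edgeR and limma-trend called 0 of the 8 and DESeq2 called 1, with 7 at an unadjusted p under 0.05 in edgeR. The part of these genes in the differences of Cdon and Gas1 was not tested.

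The members also differed between batches. In young MSCs, 4 of 9 members were called between batch B and batch A, where 25.9% of all genes were, and all 4 were lower in batch B. Gli2 was lower by 1.20 ± 0.23 on the log2 scale, or 2.30-fold, Cdon by 0.53 ± 0.12, Sufu by 0.50 ± 0.12 and Gli3 by 0.43 ± 0.13. The groups did not overlap for 6 members against 39% of all genes, the other 2 being Smo and Gli1. The fitted difference was below 0 for 7 members, and for 6 with scaling by total counts, where Ptch1 turned from −0.03 to 0.07. With each library corrected for transcript length and GC content, 4 members were below 0 and 5 above. After this correction 2 were called, Cdon at −0.33 ± 0.09 and Gli2 at −0.75 ± 0.21, and the share of all genes called is not given here. Cdon lost its call without B-young replicate 2, at −0.32.

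In old MSCs, 6 of 9 members were called between batch C and batch B, where 55.2% of all genes were, and all 6 were higher in batch C. Gli3 was 2.47-fold higher, at 1.31 ± 0.14, followed among the well-counted members by Gli2 at 0.67 ± 0.23, Cdon at 0.63 ± 0.12, Ptch1 at 0.45 ± 0.17 and Sufu at 0.36 ± 0.13, and Gli1 was the sixth. All 9 members were without overlap against 75.4% of all genes. Smo was the one member with a lower fitted level in batch C, at −0.15 ± 0.09, and was at 0.04 with scaling by total counts, which moved the median of all genes from 0.02 to 0.21. Without C-old replicate 3, 2 members were called, and the share of all genes called in that fit is not given here.

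The fitted difference of batch C against batch B rose with transcript length over all genes, from below 0 to above 0. The median was −0.71 in the shortest decile of genes and 0.51 in the longest decile, which holds Cdon, Ptch1, Gli2 and Gli3. With each library corrected for transcript length and GC content, 2 members were called, Gli3 at 0.79 ± 0.09 and Smo at −0.50 ± 0.08. Cdon was then at 0.16 ± 0.09 and Ptch1 turned to −0.20 ± 0.14. The share of all genes called after the correction is not given here. Between ages in batch B the medians were 0.14 in the shortest and −0.08 in the longest decile. After the same correction Cdon was at −1.03 ± 0.10 and Gas1 at −1.32 ± 0.25, which describes dependence on processing only.

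**Figure D3:**
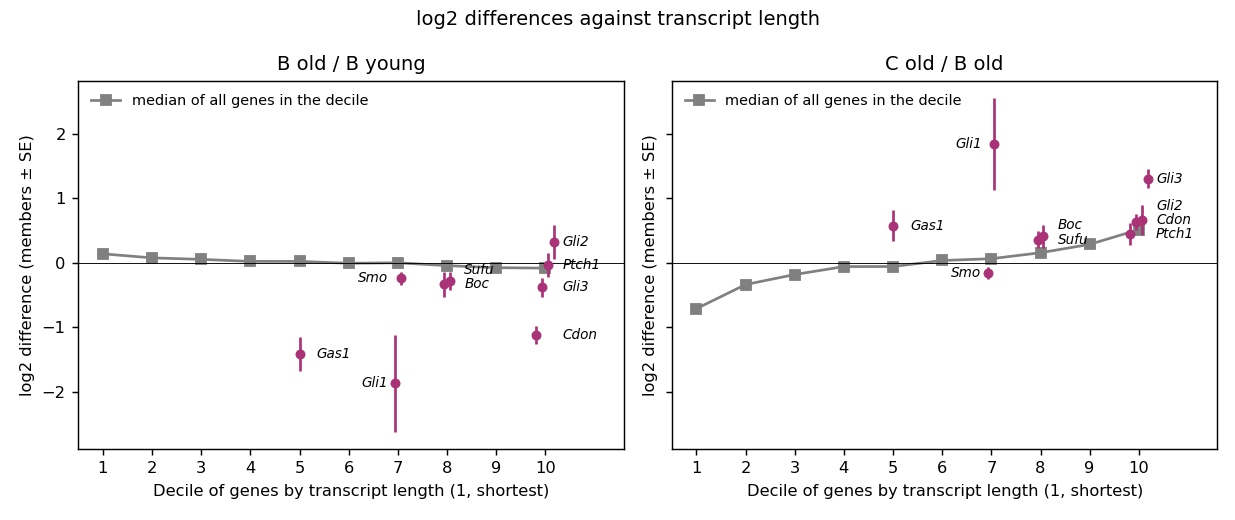
Median log2 difference of all genes by decile of transcript length (grey squares) with the 9 genes ± SE. Medians run from −0.71 to 0.51 between batches C and B, while Cdon (−1.12) and Gas1 (−1.42) lie far below the medians between ages in batch B.

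Between C-old and A-young, where age and batch cannot be told apart, Cdon was 2.02-fold lower in old MSCs, at −1.01 ± 0.10. Gas1 was at −0.65 ± 0.20, Smo at −0.55 ± 0.08 and Sufu at −0.42 ± 0.10, whereas Gli3 was at 0.50 ± 0.11 and Ptch1 at 0.38 ± 0.14. Gli1, close to the floor, was at 1.40 ± 0.56. With scaling by total counts the 4 lower genes were nearer to 0, with Cdon at −0.66, Gas1 at −0.30, Smo at −0.20 and Sufu at −0.07. Over the 20 alternative settings Gli3 was at 0.29 to 0.85, Ptch1 at 0.08 to 0.74 and Gli1 at 0.96 to 1.74. Boc (−0.04 ± 0.15) and Gli2 (−0.21 ± 0.19) lay near 0, and both turned sign with scaling by total counts, to 0.32 and 0.15. These libraries are not those of the batch B comparison. The members were chosen with both sets of values known.

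Levels of different genes were compared per kilobase of exon, counting all annotated exons of a gene. This length was 5621 bases for Smo, 7691 for Sufu and 7715 for Cdon. Their longest transcripts have 3779, 4522 and 7503 bases, so the order of neighbours below depends on the length chosen. Gas1 had the highest level, at 233 ± 91.7 CPM per kilobase (SD, n = 11), and its range did not overlap that of any other member. Smo (31.2 ± 5.29), Cdon (24.5 ± 10.2) and Boc (18.4 ± 3.42) followed, and the ranges of neighbours overlapped among these 3. Gli3 (4.85 ± 1.61), Sufu (4.31 ± 0.956) and Ptch1 (2.31 ± 0.441) formed the next group, again with overlapping neighbours. Gli2 (0.793 ± 0.266) and Gli1 (0.0662 ± 0.0451) were lowest and did not overlap with each other. By this exon length Cdon was level with Smo in A-young, at 36.0 against 36.7 CPM per kilobase. It was below Boc in B-old, at 11.5 against 14.5 CPM per kilobase. The longest transcript of Smo is much shorter than its joined exons, so the first of these comparisons holds for this length only.

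**Figure D4:**
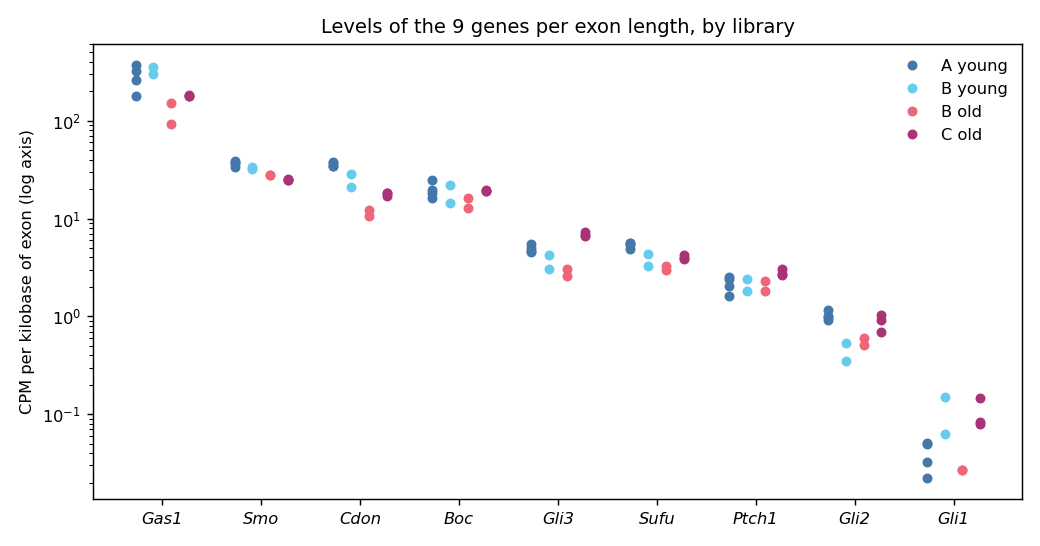
CPM per kilobase of exon (log axis) of the 9 genes in each library, coloured by group and ordered by mean level. Gas1 is highest at 91.6 to 373 and Gli1 lowest at 0.0222 to 0.150, and Cdon has a larger SD (10.2) than its neighbours Smo (5.29) and Boc (3.42).

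Of 58 other pathway genes, 53 were in the table and 49 were tested. Ihh, a ligand, had no more than 0.0726 CPM in any library, and Dhh, the other ligand in the table, was at 0.782 and 0.545 CPM in B-young and 0.135 and 0.334 CPM in B-old libraries. These are levels near the floor, and the edgeR adjusted p of Dhh was 0.254. Shh was not among the genes with counts. Hhip, a decoy receptor that is also a target gene, was at 0.469 and 0.204 CPM in B-young, 0.674 and 0.601 CPM in B-old, 0.325 to 1.16 CPM in A-young and 2.75 to 5.22 CPM in C-old libraries. It was higher in batch C than in B-old MSCs by 2.51 ± 0.45 (edgeR adjusted p = 0.00024).

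Between ages in batch B, 1 of the 49 genes passed the test, or 2.04%, which is near the 2.23% of all genes. Evc, a subunit of the ciliary complex that passes the signal on from Smo, fell by 0.50 ± 0.12 on the log2 scale (edgeR adjusted p = 0.0407). Evc was at 44.0 and 36.1 CPM in B-young and at 29.1 and 27.5 CPM in B-old libraries, whereas C-old libraries were at 58.5 to 64.6 CPM and A-young libraries at 51.0 to 59.7 CPM. The lowest levels were thus those of B-old, and the old libraries of batch C overlapped with the young ones of batch A. Leaving out 7 of the 11 libraries one at a time (A-young replicate 4, B-young replicate 1, either B-old or any batch C library) ended the call. The median difference of the list was −0.13, against 0.00445 over all genes.

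Between batches, more of the list passed the test, as did more of all genes. In young MSCs 22 of 49 genes (44.9%) were called, 3 higher and 19 lower in batch B, beside 25.9% of all genes, of which 2062 were higher and 2109 lower. After the length and GC correction 11 of the list were called, and the share of all genes called after it is not given here. Genes with small p-values on the lower side included Disp1, which releases the lipid-modified ligand (−0.85 ± 0.14, edgeR adjusted p = 0.000872), and the arrestin Arrb1 (−0.67 ± 0.12, adjusted p = 0.00104). The 3 higher genes were the ubiquitin ligase scaffold Cul3 (0.40 ± 0.10, adjusted p = 0.00646) and the cilium genes Arl13b (0.46 ± 0.11, adjusted p = 0.00666) and Ift80 (0.34 ± 0.10, adjusted p = 0.0228).

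In old MSCs 26 of 49 genes (53.1%) were called, 18 higher and 8 lower in batch C, a share near the 55.2% of all genes. Of 12 genes for signal transduction at the cilium, 10 were called and 9 of them were higher, with a median of 0.68, as Evc (1.12 ± 0.11, edgeR adjusted p = 1.07e-06) and the ciliary motor Kif3a (1.12 ± 0.12, adjusted p = 1.45e-06). Scube3, a secreted protein of a family that carries the ligand, rose to 6.74 to 10.4 CPM from 1.94 and 2.02 CPM (2.17 ± 0.29, adjusted p = 1.57e-05). The lower genes with the smallest p were the cyclin gene Ccnd2 (−0.92 ± 0.11, adjusted p = 3.53e-06), the protein kinase A subunit Prkar1a (−0.84 ± 0.10, adjusted p = 4.81e-06) and the casein kinase Csnk1a1 (−0.44 ± 0.09, adjusted p = 0.000839). The dependence on transcript length described for the members applies to this comparison as a whole.

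**Figure D5:**
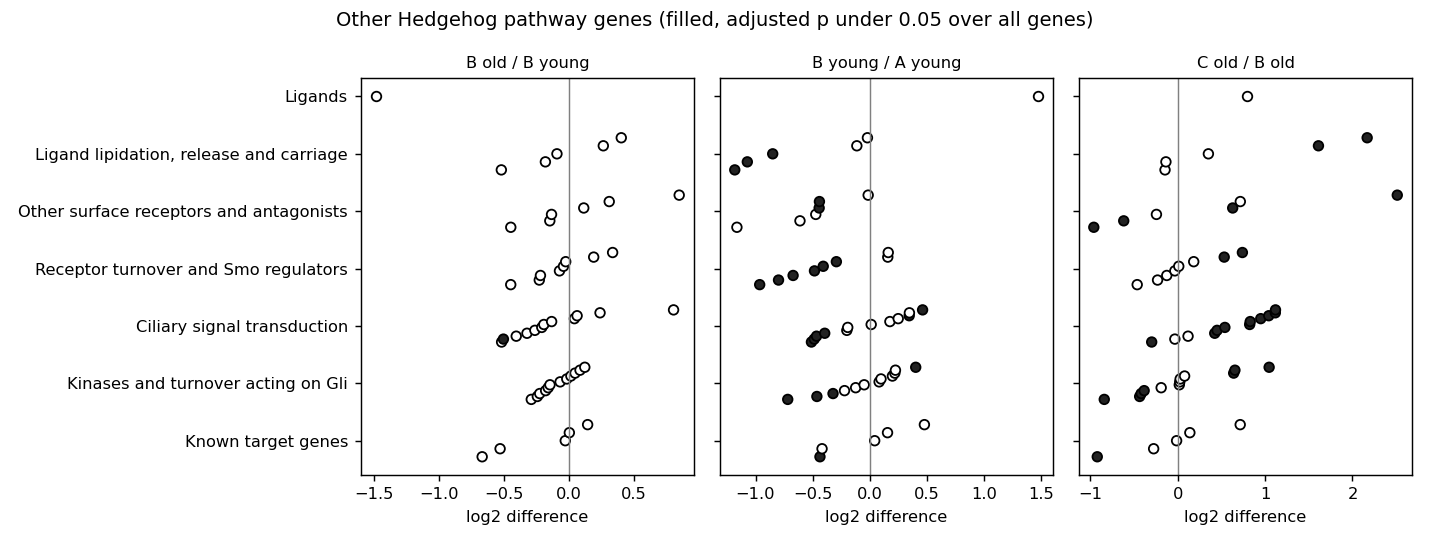
log2 differences of 49 other Hedgehog pathway genes by role in 3 comparisons, filled where edgeR's adjusted p was under 0.05 over all genes. Evc is the 1 filled gene between ages in batch B, against 22 and 26 filled genes in the batch comparisons.

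Cdon also has partners outside the pathway. Neo1, a receptor that Cdon binds, was at 237 and 171 CPM in B-young and 150 and 173 CPM in B-old libraries (−0.34 ± 0.15, edgeR adjusted p = 0.277). The adhesion protein N-cadherin, Cdh2, was at 107 and 77.3 CPM in B-young and 91.0 and 93.3 CPM in B-old libraries (adjusted p = 0.993). Both overlapped between ages. Cdh15 was not among the genes with counts.

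Likeness to Cdon over the 11 libraries was measured by Pearson r of log2 CPM. Among 12047 genes with a mean of at least 1 CPM, Sema3f, a secreted semaphorin, followed Cdon most closely (r 0.995). Next were the matrix protein gene Adamtsl4 (0.989), the microtubule-associated Eml2 (0.988), the zinc finger gene Zfp516 (0.982) and Spg20 (0.981). Mean levels of Sema3f were 104 CPM in A-young, 69.5 CPM in B-young, 37.7 CPM in B-old and 52.3 CPM in C-old libraries, in the same order of groups as Cdon, at 277, 192, 88.5 and 137 CPM. The lowest r was −0.977 for Abcg2, an efflux transporter, at 24.8, 30.7, 49.7 and 36.9 CPM in the same groups, followed by −0.969 for Fam133b. Among the members, Sufu followed Cdon most closely (r 0.915), then Smo (0.827) and Gas1 (0.795), while Ptch1 was at −0.168. The genes share libraries, depth and scaling, and the 11 libraries fall into 4 groups, so that these values describe likeness over groups.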

How the data were processed

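Gene counts of 11 MSC libraries were deposited by the authors as a table of whole-number counts per Ensembl gene, without normalisation. Per the labels' processing notes the genome build was mm10 (GRCm38). The aligner, the counting tool and the strand setting are not given in the sources used here. The paper supplied describes another experiment, and its methods were not assumed. Of 28222 genes, 28179 were matched to symbols, positions and exon lengths of GENCODE M21 (GRCm38), and 43 were not. Groups were taken from age and batch in the labels.

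Counts were analysed in R 4.3.3 with edgeR 4.0.16. Genes were filtered with filterByExpr at a minimum count of 5, which left 16132, libraries were scaled by TMM, and 4 group means were fitted to all 11 libraries with the quasi-likelihood test. A prior count of 2 was used for log2 CPM, which entered limma-trend, the loess correction and Pearson r, and not for edgeR's fold changes. Benjamini-Hochberg adjusted p-values over all genes under 0.05 were called. The contrasts were old against young in batch B, batch B against A in young and batch C against B in old MSCs. CPM use TMM-scaled totals. With totals of 11969336 to 20315934 counts, the floor of 3 counts was 0.156 to 0.253 CPM. The Gli1 ratios are of summed counts over summed scaled totals. Floors cover counting error only.

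The 9 members and all gene lists were chosen with earlier results of these data known, so no p-value is given for a member. Named were all members, the ligands, Hhip, Neo1 and Cdh2, every list gene called between ages in batch B, the 3 called list genes with the smallest p in each direction between batches, and the 5 genes most and 2 least like Cdon by Pearson r, leaving out predicted genes. Some genes of this rule are not reported here. Marker genes, Arhgap9 and the remaining values were named after their values were seen. Alternatives were limma-trend (limma 3.58.1), DESeq2 1.42.0, RLE factors, total counts, no filter, a minimum of 10 counts, leaving out each library, fitting only the groups compared, a replicate block, no batch term, and a loess correction (span 0.3) for transcript length and GC content. The fitting functions were tested on simulated data. Windows around gene starts came from a RefSeq table (GRCm38.p6), which held 7 of the 9 members.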

Additional observations from a re-analysis of the deposited data

How the results depend on the processing

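Within batch B, 360 genes were called between ages, and 2 of 9 members were called under every alternative but no batch term (3 members) and the loss of single libraries (1 to 5). For all genes the number was 640 with DESeq2, 1094 without a filter, 123 with only the groups compared, 2641 without a batch term and 84 to 2007 without single libraries, where batch B old replicate 1 gave the lowest and batch B young replicate 2 the highest number. For the 49 other pathway genes, 1 was called, against 0 with total counts or only the groups compared, 4 without a filter, 10 without a batch term and 0 to 12 without single libraries. Of the genes called between ages 31.1% were higher in old MSCs with TMM and 44.8% with total counts. Between batches B and A the shares higher in B were 49.4% and 65.4%, and between C and B the shares higher in C were 48.7% and 63.1%.

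Between batches B and A in young MSCs 4171 genes were called, against 2686 with only the groups compared and 1701 to 5348 without single libraries. The members called were 4, against 2 after the length and GC correction and 1 to 5 without single libraries. The pathway genes called were 22, against 9 with only the groups compared, 11 after the correction and 4 to 26 without single libraries, where batch B young replicate 2 gave the lowest number each time. Without batch A young replicate 2 or 3, 12 and 14 pathway genes were called. Between batches C and B in old MSCs the members called were 6, against 2 after the correction, where Ptch1 turned to −0.20 (SE 0.14). Without single libraries they were 2 to 8. The number of all genes called after the correction, or between batches C and B without single libraries, is not given here. A setting without a library of batch B leaves 1 library in its group, which is then assumed to vary like the others.

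Replicate numbers are shared between groups in the labels, but nothing says that they pair libraries, and same-numbered batch B libraries deviated together with r = 0.037 over genes. With the replicate block, 294 genes, 2 members and 0 pathway genes were called between ages, 2591, 2 and 8 between batches B and A, and 8197, 5 and 25 between batches C and B. Gli1, with 2 to 11 counts, is limited by depth.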
